A study of Homo sapiens with 14 samples.

Results

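The HOX genes lie in 4 clusters, and the open chromatin of these clusters was described from ATAC-seq peak lists of 14 libraries. A peak was taken in by position alone, where it overlapped one of 4 intervals of hg19: chr7:27100000-27290000 (HOXA), chr17:46590000-46830000 (HOXB), chr12:54310000-54470000 (HOXC) or chr2:176930000-177080000 (HOXD). In all, 1473 of 1971391 deposited peaks met this rule. When every list was cut to the 93488 strongest peaks and the lists were merged, the intervals held 163 of 243043 open regions, of which 49 lay in HOXA, 68 in HOXB, 29 in HOXC and 17 in HOXD. The 38 genes considered were 10 of HOXA, 10 of HOXB, 9 of HOXC and 9 of HOXD.

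HOX genes encode homeodomain transcription factors that give cells their position along the body axis. Within a cluster the genes follow each other in the order in which they are used along that axis, and neighbouring genes are opened or silenced together by trithorax and Polycomb complexes, so the open stretch of a cluster differs between cell types of different origin. From the low to the high coordinate end the HOXA interval runs from HOXA2, a gene of the hindbrain and neural crest, to HOXA13, a gene of the distal limb and genital tract. The HOXB interval runs from HOXB1 to HOXB13, a gene of the prostate and tail end. The HOXC and HOXD intervals run the other way, from HOXC13, a gene of hair and nails, to HOXC4, and from HOXD13, a gene of the digits, to HOXD1. This order was taken from a RefSeq table of a later build, and no annotation of hg19 was used, so no peak is assigned to a gene here.

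ATAC-seq maps open chromatin by the cuts of the Tn5 transposase. LHCN is an immortalised human myoblast line, and here it carried an empty vector or overexpressed PAX3-FOXO1 for 72 h. PAX3-FOXO1 is a fusion protein that drives alveolar rhabdomyosarcoma, and RH30 is a line from such a tumour that carries the fusion itself. RH30 cells were treated with QC6352 at 200 nM, a compound that blocks the KDM4 family of histone demethylases, or with 0.1% DMSO as its solvent, or were transduced with a control hairpin (shCtrl) or with 1 of 2 hairpins against KDM4B (shKDM4B-813 and shKDM4B-814) for 72 h. The protocol's 72 h may hold for the compound as well, but this is not stated separately. Each of the 7 groups held 2 libraries. The labels name no separate cultures, so the spread behind each p-value is that of these libraries and may be technical. The promoter of the fusion vector and the fusion and KDM4B levels were not analysed here.

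The hairpin libraries carry a conflict. In 6 of the 14 files the peak names inside the file name another group than the sample title. The pair labelled shCtrl is named sh813 inside, the pair labelled shKDM4B-813 is named sh814, and the pair labelled shKDM4B-814 is named shCtrl, while the other 8 files match their titles. The data used here hold no KDM4B level that could settle this. Likeness to DMSO was measured by the mean Jaccard index, regions open in both libraries over regions open in either. Over the genome it was 0.447 for the pair labelled shCtrl, 0.530 for shKDM4B-813, 0.571 for shKDM4B-814 and 0.486 for QC6352. In the HOX intervals it was 0.453, 0.548, 0.512 and 0.469 in the same order. The pair named shCtrl inside was the most like DMSO over the genome, but not in the HOX intervals. Which names hold was not tested. Groups were therefore kept as labelled, and the region counts and interval coverage differences of the main comparisons with hairpin libraries are also given by the inner names. Flanks, values per Mb and other settings with these libraries were computed as labelled only.

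The lists held 93488 to 176899 peaks, so lists of equal length were compared: 170390 peaks in LHCN, 105136 with the compound, and 93488 with the hairpins and across all 14 libraries. A peak outside an equal-length list may still be in the deposited list. The number of peaks in the HOX intervals of the deposited lists ranged from 55 and 57 in the pair labelled shKDM4B-814 to 158 in a library labelled shCtrl. Lists of equal length covered unequal parts of the genome. With the compound the lists covered 53.7 and 60.3 Mb of the genome for DMSO but 48.8 and 71.8 Mb for QC6352, and with the hairpins 52.7 and 56.5 Mb as labelled shCtrl, 45.9 and 45.9 Mb as shKDM4B-813, and 39.5 and 38.4 Mb as shKDM4B-814. Values per Mb of list are given where they turn a direction and for the joint test of QC6352 and both hairpins. Peaks of 1000 bp or more made up 1.82% to 15.3% of the HOX peaks over the 14 deposited lists and 4.29% to 10.9% of the other peaks. The HOX shares were 1.82% and 3.51% as labelled shKDM4B-814 and 4.72% and 5.06% as shCtrl and 13.95% and 15.3% with DMSO, where the other peaks gave 4.33% and 4.29%, 7.65% and 8.31%, and 10.5% and 10.9%.

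In the equal-length lists of all 14 libraries, 18 of the 163 HOX regions (11.0%) were open in every library, beside 9.68% of regions over the genome. In 6 regions (3.68%, beside 5.66% over the genome) all 4 LHCN libraries and no RH30 library had a peak. In 2 regions (1.23%, beside 1.73%), both in HOXB, all 10 RH30 libraries and no LHCN library had one. Another 64 regions (39.3%, beside 30.4%) were open in 1 library only.

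**Figure D1:**
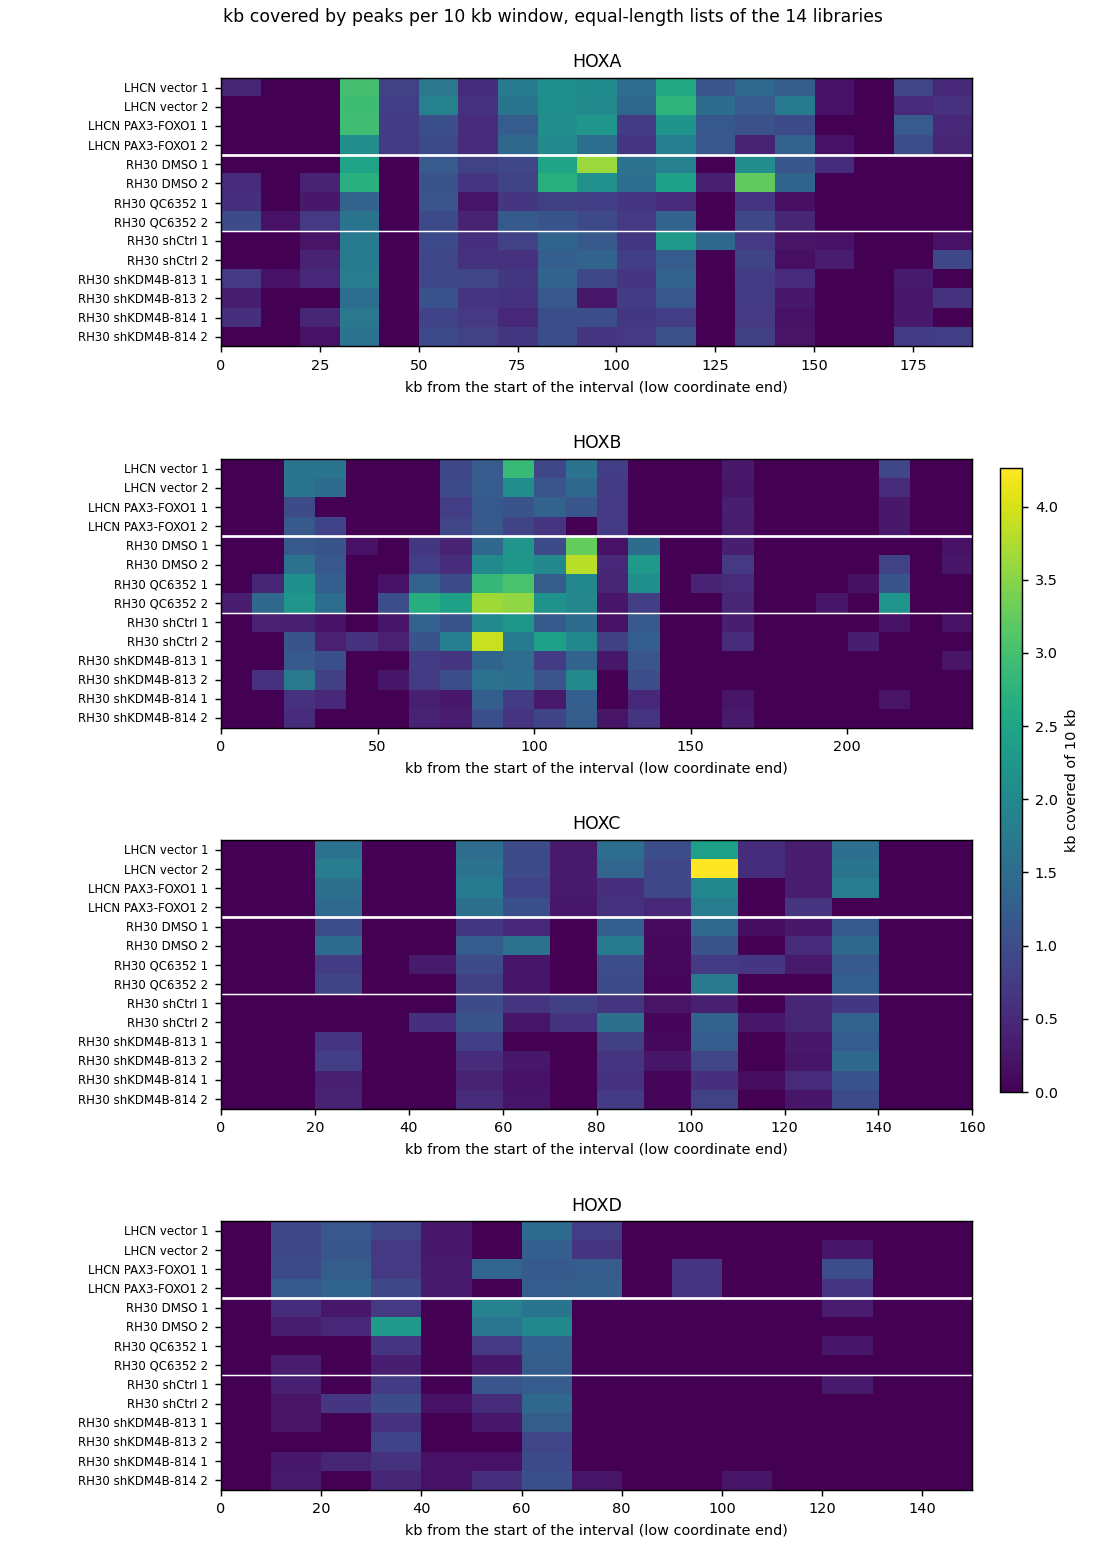
Each panel is a HOX interval, each line a library and each column a 10 kb window placed by its distance in kb from the low coordinate end; colour gives the kb of that window covered by peaks in the equal-length lists of all 14 libraries. In HOXA the window at 40 to 50 kb is covered in the LHCN libraries and empty in all 10 RH30 libraries, and in HOXB the window at 130 to 140 kb is the reverse.

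The open stretch of HOXA was longer in the myoblasts than in the tumour line. With vector, 15 of 19 windows of 10 kb held a peak in both libraries, and 13 of them formed an unbroken run from 30 to 160 kb. A window counted only where every library of the group had a peak, so adding libraries can only shorten a run. Over all 4 LHCN libraries 14 windows were open, with the longest run from 30 to 150 kb. In the 4 RH30 controls (DMSO and the pair labelled shCtrl) 10 windows held a peak in every library, with the longest run from 50 to 120 kb. The same 10 windows were open in all 10 RH30 libraries, so the run does not turn on which hairpin pair is the control. Between 40 and 50 kb the LHCN vector libraries had 0.820 and 0.787 kb covered, whereas none of the RH30 libraries had a peak in lists of 93488. In its longer list of 105136 peaks, DMSO library 1 had 0.284 kb there. The window from 160 to 170 kb had no peak in any of the 14 libraries.

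The strongest HOXA regions differed between the lines. Strength is given as the percentile of a peak's rank by −log10 q within its own list, where 100 is the strongest. At chr7:27169395-27171034 the percentile was 98.6 and 98.1 with vector and 92.7 and 96.8 with PAX3-FOXO1. In RH30 the same region lay at 64.2 and 59.6 with DMSO, at 46.7 and 68.2 with QC6352, and between 62.3 and 79.1 in the 6 hairpin libraries. All 4 LHCN values were above all RH30 values. The order was the opposite at chr7:27237942-27241409, a region of 3468 bp on the HOXA13 side, with 69.8 and 62.9 for vector, 44.8 and 42.4 for PAX3-FOXO1, 96.8 and 98.2 for DMSO, 94.6 and 91.3 for QC6352 and 96.9 to 98.7 for the hairpin libraries. By contrast, chr7:27134877-27137141 on the HOXA2 side was strong in both lines, from 86.4 to 97.3 over the 14 libraries. Next in RH30 was chr7:27199714-27201606, at 91.9 and 87.4 with DMSO against 58.4 and 68.5 with vector.

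HOXB was open over a similar core in both lines. Covered kb was 3.80 kb higher in the RH30 controls as labelled than with vector. By the inner names the difference was -0.87 kb, and with −log10 q of 10 or more it was -5.58 kb. With lists of 170390 peaks the vector libraries held 1.76 and 2.07 kb at 60 to 70 kb and none at 130 to 140 kb. In the shorter lists common to both lines the longest run was 70 to 130 kb with vector. It was 60 to 120 kb over all 10 RH30 libraries and 60 to 140 kb in the RH30 controls. Both regions present in all RH30 and no LHCN library lay at the ends of this run. At chr17:46723293-46725355 (133 kb) the percentile was 50.4 and 56.7 with DMSO, 77.5 and 70.8 with QC6352, 73.8 and 74.7 in the pair labelled shCtrl, 64.8 and 61.3 in that labelled shKDM4B-813, and 17.4 and 49.96 in that labelled shKDM4B-814. Neither vector library had a peak there in its deposited list, although both PAX3-FOXO1 libraries did. The other, chr17:46654677-46656435 (64.7 kb), ran from 3.19 to 85.3 over the RH30 libraries, and both vector libraries had a weaker peak there in the deposited lists. Conversely, chr17:46715141-46715561 had percentiles of 66.4 and 58.2 with vector and 32.9 and 50.5 with PAX3-FOXO1, and no RH30 library had it in the equal-length lists, although 2 of the 4 RH30 controls had it in the deposited ones. The strongest region of both lines was the same one, chr17:46662485-46663552, at 81.6 and 80.0 with vector, 83.6 and 87.1 with DMSO and 89.3 and 89.95 in the pair labelled shCtrl.

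In HOXC the vector libraries were open without a break from 50 to 140 kb, and all 4 LHCN libraries from 50 to 110 kb. The longest run in the RH30 controls was 80 to 110 kb, but every control also held a peak from 50 to 70 and from 120 to 140 kb. At 70 to 80 kb DMSO had no peak, while the pair labelled shCtrl held 0.814 and 0.627 kb. At 110 to 120 kb DMSO library 1 held 0.158 kb and shCtrl library 2 held 0.273 kb. At 90 to 100 kb the RH30 controls held only 0.064 to 0.224 kb, against 1.02 and 0.906 kb with vector. The strongest LHCN region was chr12:54410263-54412755, at 80.6 and 81.9 with vector against 53.1 and 68.0 with DMSO. The strongest RH30 region was chr12:54393329-54395773, at 60.5 and 62.3 with DMSO against 23.8 and 3.69 with vector and no peak with PAX3-FOXO1. Windows from 0 to 20 kb, 30 to 40 kb and 140 to 160 kb had no peak in any of the 14 libraries at this list length. Between them lay chr12:54332000-54333813 on the HOXC13 side, at 72.0 and 75.1 with vector and 35.3 and 50.3 with DMSO, and outside the equal-length lists of the pair labelled shCtrl.

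The longest open run of HOXD lay elsewhere in the 2 lines, although 3 of the 4 windows open in every RH30 control (10 to 20, 30 to 40 and 60 to 70 kb) were open with vector too. The vector libraries shared a run from 10 to 50 kb and the RH30 controls one from 50 to 70 kb. Over all 10 RH30 libraries only the windows at 30 to 40 and 60 to 70 kb were open in each. The window from 50 to 60 kb held no peak with vector, while 1.89 and 1.68 kb of it were covered with DMSO and 1.13 and 0.541 kb in the pair labelled shCtrl. Its region, chr2:176986187-176988343, had percentiles of 64.6 and 54.4 with DMSO, and both vector libraries had a weaker peak there in their longer deposited lists. The window from 70 to 80 kb was covered over 0.777 and 0.661 kb with vector and over none in these RH30 libraries. At 63.5 kb, chr2:176993549-176995575 was present in all 14 libraries, at 36.9 and 33.8 with vector and between 62.9 and 87.8 over the RH30 libraries. At 32.0 kb, chr2:176961960-176962930 led in LHCN, at 86.0 and 86.0 with vector and 44.1 to 87.0 over the RH30 libraries.

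Of 134 HOX regions open in vector or RH30 control libraries, 4 (2.99%) were open in RH30 controls only, beside 6.64% of such regions over the genome, and 16 (11.9%) in LHCN only, beside 18.8%. Both shares lay below the background. In 3 of the 4 RH30-only regions both vector libraries had a peak in their longer deposited lists, and chr17:46723293-46725355 was the one without. Of the 16, 9 were in HOXA, 2 in HOXB, 3 in HOXC and 2 in HOXD. The strongest by its lower percentile was chr7:27173964-27174385, at 71.8 and 68.0 with vector and absent from the deposited lists of all 4 RH30 controls. With the inner names the counts were 4 and 17, with all 10 RH30 against all 4 LHCN libraries 2 and 6, and with DMSO as the only RH30 control 9 of the RH30-only kind.

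The kb covered in each interval summed these differences. HOXA held 22.0 and 22.1 kb with vector, 18.8 and 20.1 kb with DMSO, and 12.7 and 11.3 kb in the pair labelled shCtrl. The difference of RH30 controls from vector was -6.34 kb in HOXA, 3.80 kb in HOXB, -5.71 kb in HOXC and -0.38 kb in HOXD. In HOXA, HOXB and HOXC the groups did not overlap, and the exact two-sided permutation test gave p = 0.133, the smallest that 4 against 2 libraries allow (0.178 adjusted over the 4 clusters). In HOXB the gap was thin, with 12.85 kb in the lowest RH30 control against 12.81 and 11.5 kb with vector, and with the inner names the difference was -0.869 kb. The inner names gave -7.38 kb in HOXA, -6.81 kb in HOXC and -0.89 kb in HOXD. In HOXD the groups overlapped (exact permutation p = 0.8). With all 10 RH30 against all 4 LHCN libraries the adjusted exact permutation p was 0.0213 for HOXA (-7.50 kb) and 0.0160 for HOXC (-5.03 kb). It was 0.0213 for HOXD (-3.27 kb) and 0.176 for HOXB (4.84 kb). That comparison permutes treated and control libraries together, so it does not separate line from treatment. In HOXD the mean was 5.39 kb with vector and 8.18 kb with PAX3-FOXO1. In RH30 it was 6.095 kb with DMSO and 2.58 kb with QC6352. As labelled shCtrl, shKDM4B-813 and shKDM4B-814 it was 3.91, 2.07 and 2.91 kb. The flanks of 500 kb on each side differed too. The RH30 controls held 0.298 of the vector coverage around HOXA, 0.710 around HOXC and 0.288 around HOXD, while the HOXA, HOXC and HOXD intervals themselves held 0.712, 0.554 and 0.929. The difference between an interval and its flanks was not tested.

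Over all genomic 10 kb windows with a peak in these libraries, 38.3% were lower in every RH30 control than in both vector libraries and 13.2% were higher. The HOX shares were 6 of 17 lower in HOXA, 2 of 17 in HOXB, 6 of 11 in HOXC and 4 of 8 in HOXD, and the higher windows were 4 in HOXB, 1 in HOXD and none in HOXA and HOXC. Neighbouring windows share their libraries and their peaks, so these counts are a description, and they were made with groups as labelled only.

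**Figure D2:**
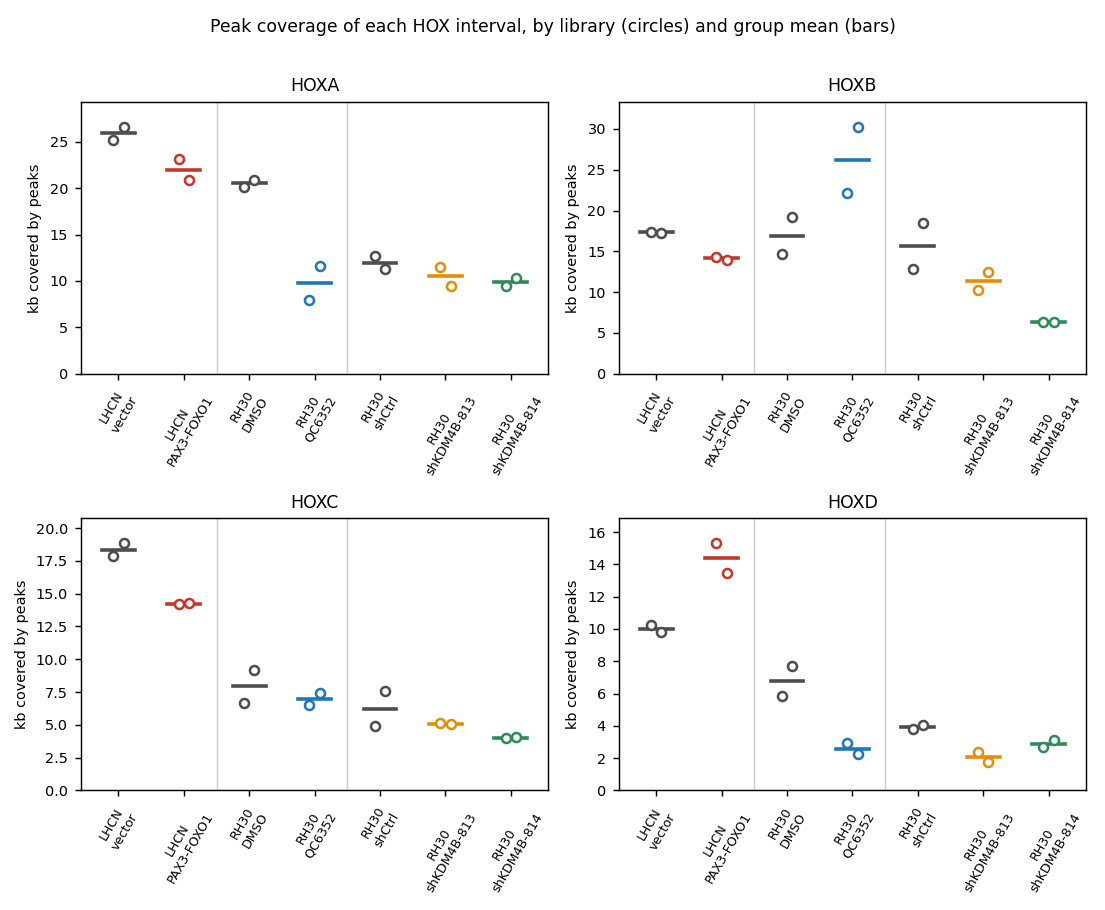
Circles give the kb of each HOX interval covered by peaks in a library and bars the mean of the 2 libraries of a group; lists are of equal length within LHCN, within the compound and within the hairpin experiment, and hairpin groups are as labelled. DMSO stands at 20.1 and 20.9 kb in HOXA and QC6352 at 7.92 and 11.6 kb, with the order turned round in HOXB.

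Overexpression of PAX3-FOXO1 went with less coverage of 3 HOX intervals and more of HOXD. HOXA held 25.2 and 26.6 kb with vector and 23.1 and 20.8 kb with PAX3-FOXO1, HOXB 17.3 and 17.3 kb and then 14.3 and 13.98 kb, and HOXC 17.9 and 18.8 kb and then 14.2 and 14.3 kb. HOXD went the other way, with 10.2 and 9.82 kb with vector and 15.3 and 13.5 kb with PAX3-FOXO1. The fusion group thus had 0.848, 0.816 and 0.775 of the vector coverage in HOXA, HOXB and HOXC and 1.44 in HOXD. In none of the 4 did the groups overlap, but 2 against 2 libraries cannot give an exact two-sided permutation p below 0.333, which each test gave. The flanks lay on the same side of vector as the intervals. Their ratios were 0.687 around HOXA, 0.787 around HOXB, 0.775 around HOXC and 1.09 around HOXD. In HOXD the interval was therefore further from vector than its flanks were.

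The HOXD difference lay in several windows. Of 12 windows with a peak, 7 were covered more in both PAX3-FOXO1 libraries than in both vector libraries, beside 23.5% of windows over the genome, and 1 was covered less, beside 31.7%. At 40 to 50 kb the vector libraries held 0.294 and 0.527 kb and the PAX3-FOXO1 libraries 1.86 and 1.14 kb. At 90 to 100 kb the values were 0.674 and 0.621 kb and then 2.49 and 2.09 kb. The window that was lower was 60 to 70 kb, at 2.01 and 1.77 kb and then 1.21 and 1.24 kb. At chr2:176944346-176945545, on the HOXD13 side, the percentile was 67.7 and 65.6 with vector and 88.4 and 85.2 with PAX3-FOXO1. In HOXA 11 of 18 windows were lower and 1 was higher, in HOXB 8 of 17 and 3, and in HOXC 8 of 13 and 3. The lower HOXC windows included all 6 from 60 to 120 kb. At 100 to 110 kb, where the strongest LHCN region of HOXC lies, the vector libraries held 4.19 and 4.72 kb and the PAX3-FOXO1 libraries 2.89 and 3.52 kb. In HOXB the windows at 60 to 80 kb were among the lower ones, with 1.626 and 1.648 kb at 70 to 80 kb with vector and 0.774 and 0.886 kb with PAX3-FOXO1.

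**Figure D3:**
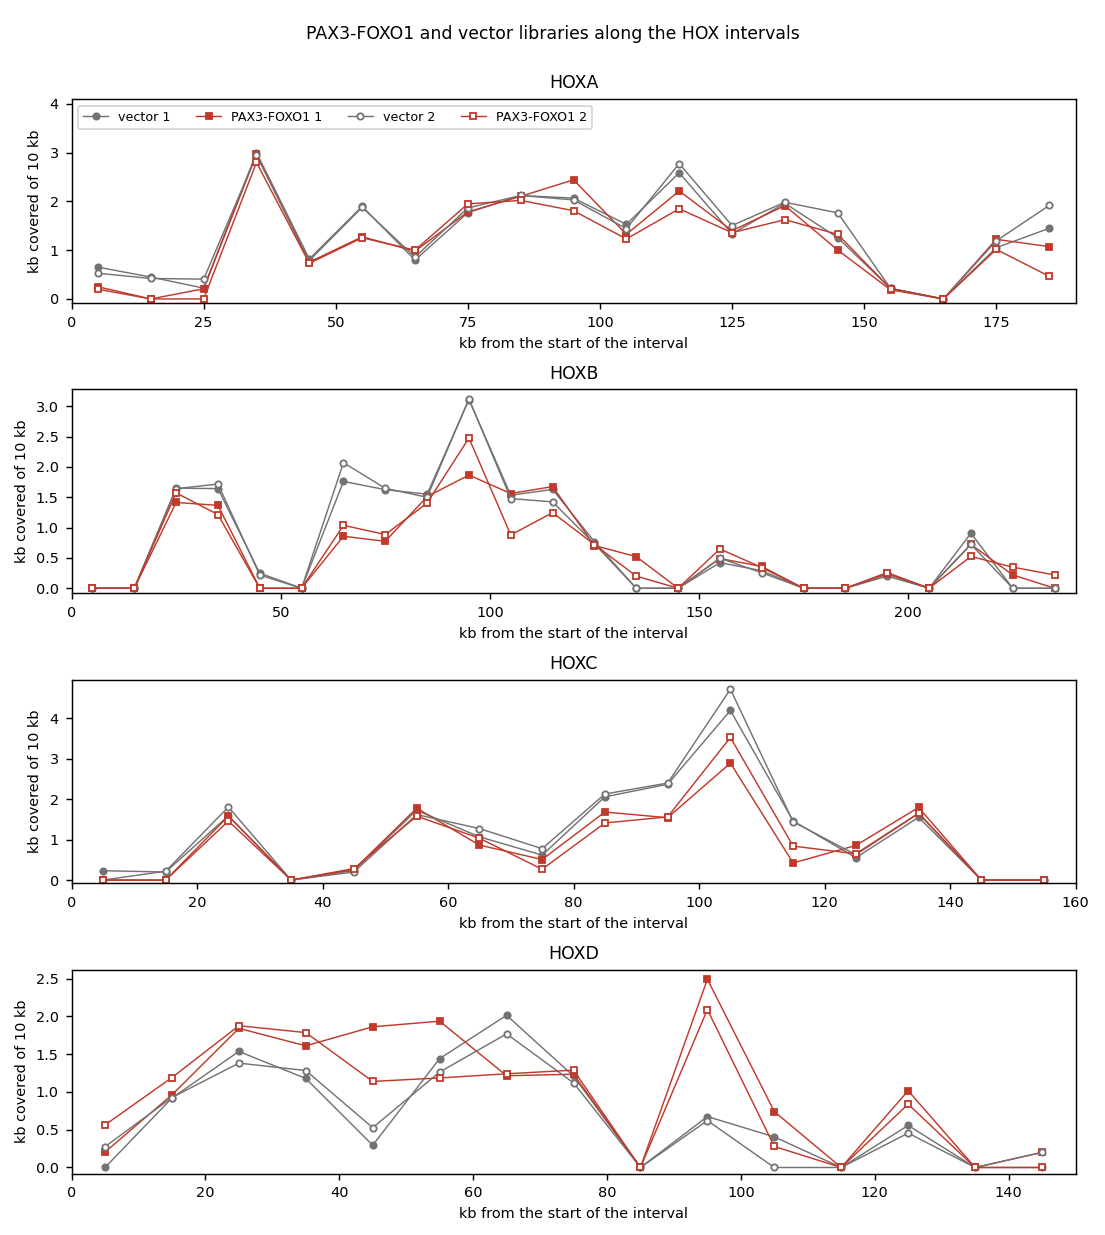
Points give the kb of each 10 kb window covered by peaks along each HOX interval, in the 2 vector libraries (grey) and the 2 PAX3-FOXO1 libraries (red) of LHCN, with lists of 170390 peaks. In HOXD the red points lie above the grey ones at 40 to 50 kb and at 90 to 100 kb and below them at 60 to 70 kb.

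Few whole regions appeared or disappeared with the fusion. Of 152 HOX regions open in any LHCN library, 8 (5.26%) were gained, meaning open in both PAX3-FOXO1 and in no vector library, beside 8.13% over the genome. Another 15 (9.87%) were lost, beside 8.44%. The gained share lay below its background and the lost share close to it. HOXA held 7 of the lost regions, HOXC 4, and HOXB and HOXD 2 each, and the gained ones were 4 in HOXA, 3 in HOXD and 1 in HOXB. The strongest lost region, chr7:27154742-27155002, had percentiles of 50.2 to 55.7 and authors' fold values over background of 10.6 to 12.2 with vector, and no peak in the deposited PAX3-FOXO1 or RH30 lists. Next came chr12:54397820-54398106 in HOXC (fold 8.86 to 9.22) and chr7:27103811-27104257 (fold 8.27 to 11.9). The gained regions were weaker. The highest, chr7:27176796-27177120, reached percentiles of 34.3 to 37.5 and folds of 6.20 to 8.01, and it was open in no deposited RH30 list. In HOXD, chr2:177024824-177025678 was second (fold 5.17 to 6.86), with a weaker peak in the deposited list of 1 vector library. Leaving out 1 PAX3-FOXO1 library raised the gained count to 15 or 19, since a call then needs fewer libraries.

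QC6352 went with less coverage of HOXA and HOXD, more of HOXB, and no separation in HOXC. HOXA held 20.1 and 20.9 kb with DMSO and 7.92 and 11.6 kb with QC6352, a ratio of 0.476. HOXD held 5.85 and 7.72 kb with DMSO and 2.92 and 2.24 kb with QC6352, a ratio of 0.380. HOXB was covered over 14.6 and 19.1 kb with DMSO and 22.1 and 30.3 kb with QC6352, a ratio of 1.55. In HOXC the groups overlapped, with 6.65 and 9.20 kb and then 6.55 and 7.46 kb. The differences were -10.7, 9.30, -0.92 and -4.21 kb in HOXA, HOXB, HOXC and HOXD. For HOXA, HOXB and HOXD the exact two-sided permutation p was 0.333, the smallest possible here, and for HOXC it was 0.667.

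The flanks of HOXA and HOXD overlapped between the groups. Around HOXA the flanks held 10.7 and 9.03 kb with DMSO and 9.77 and 12.3 kb with QC6352. Around HOXD they held 8.60 and 8.49 kb and then 7.11 and 8.94 kb. Around HOXB they held 31.0 and 38.6 kb and then 50.7 and 47.9 kb, a ratio of 1.42, so HOXB and its flanks were both higher. QC6352 library 2 covered more of the genome than the other 3 libraries, and without it the HOXB difference was 5.21 kb.

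In HOXA 9 of 17 windows were lower in both QC6352 libraries than in both DMSO libraries, beside 27.2% over the genome, and 1 was higher, beside 17.0%. All 7 windows from 80 to 150 kb were among the lower ones. At 90 to 100 kb the values were 3.62 and 2.16 kb with DMSO and 0.790 and 0.933 kb with QC6352, and at 130 to 140 kb 2.09 and 3.23 kb and then 0.662 and 0.919 kb. The strongest RH30 region of the interval nevertheless stayed among the top peaks of its lists, as given above (96.8 and 98.2, then 94.6 and 91.3). In HOXD 6 of 7 windows were lower, those from 10 to 70 kb. In HOXB 11 of 21 windows were higher, among them every window from 0 to 40 kb and from 50 to 100 kb, and 2 were lower. At 60 to 70 kb HOXB held 0.696 and 0.785 kb with DMSO and 1.79 and 2.65 kb with QC6352. The window at 110 to 120 kb went the other way, with 3.26 and 4.02 kb and then 1.99 and 1.98 kb. In HOXC 2 of 11 windows were lower and 1 was higher.

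**Figure D4:**
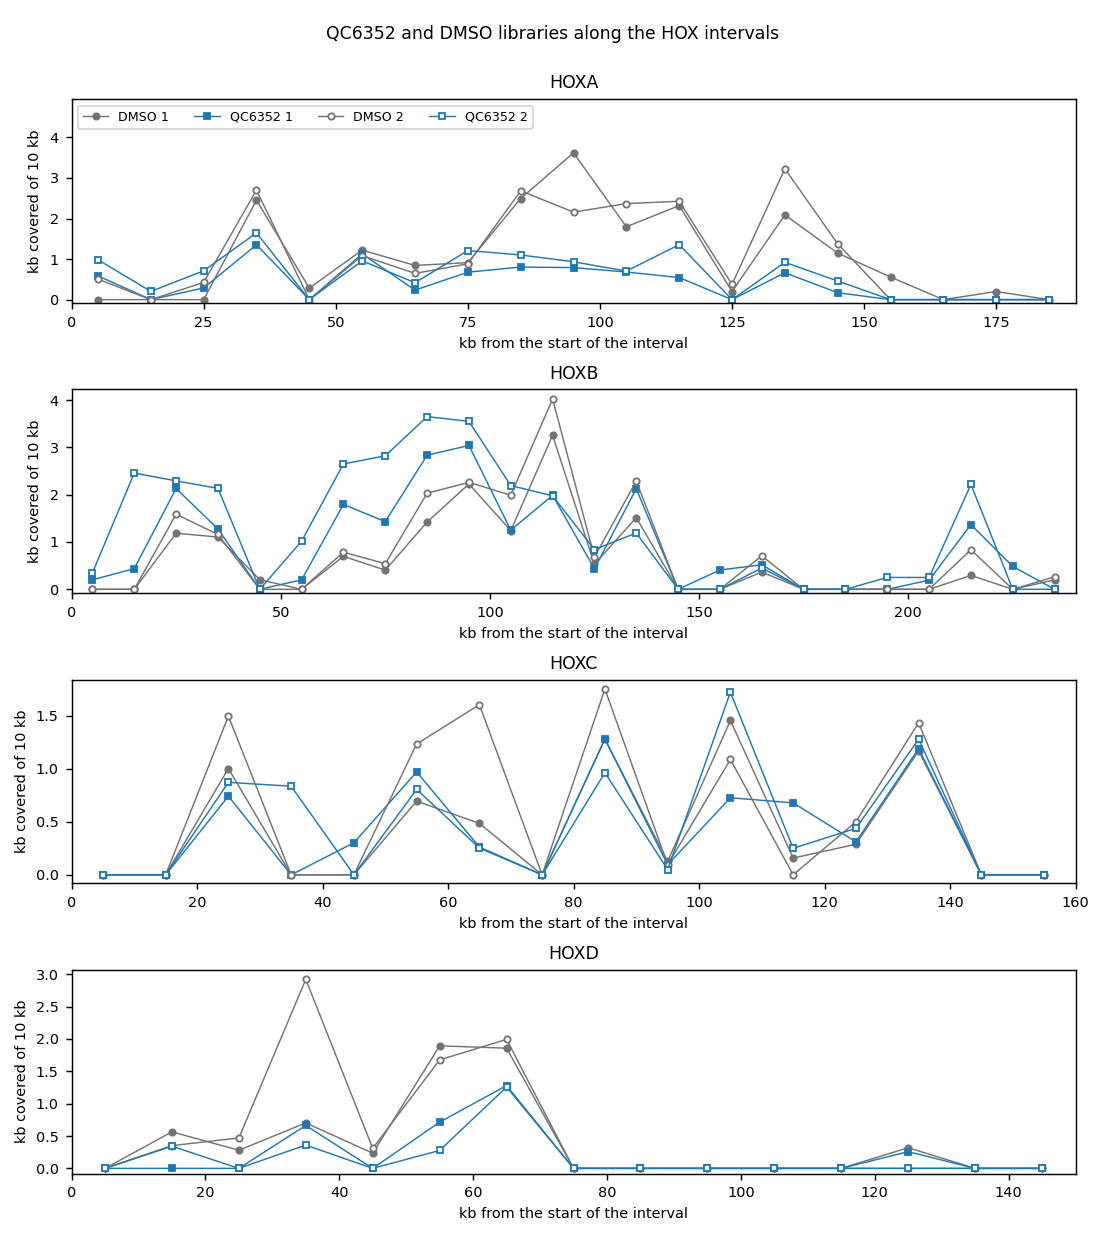
Points give the kb of each 10 kb window covered by peaks along each HOX interval, in the 2 DMSO libraries (grey) and the 2 QC6352 libraries (blue) of RH30, with lists of 105136 peaks. The blue points lie below the grey ones from 80 to 150 kb in HOXA and from 10 to 70 kb in HOXD, and above them from 50 to 100 kb in HOXB.

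In HOXA it was the DMSO libraries that stood apart from the rest of RH30. In the lists of all 14 libraries they held 18.8 and 20.1 kb, while the other 8 RH30 libraries, the pair labelled shCtrl and the pair named shCtrl inside among them, held 7.92 to 12.7 kb. The same was true of HOXD, at 5.42 and 6.77 kb against 1.75 to 4.04 kb. In HOXB it was QC6352 that stood apart, at 20.3 and 26.9 kb against 6.31 to 18.7 kb. For DMSO against the hairpin controls, treatment and experiment cannot be told apart.

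Region calls lay nearer to the background. Of 133 HOX regions in these 4 libraries, 5 (3.76%) were gained with QC6352, beside 6.5% over the genome, and 11 (8.27%) were lost, beside 7.28%. HOXA held 6 of the lost regions, HOXB 3, HOXD 2 and HOXC none. The strongest of them by the lower percentile, chr7:27184094-27185006, had folds of 6.98 to 7.43 with DMSO and no peak in the deposited QC6352 lists. Next was chr7:27190025-27190747 (fold 6.64 to 7.43), part of a region at which the percentiles were 90.3 and 85.4 with LHCN vector, 36.9 and 48.6 with DMSO, 17.9 and 23.2 in the pair labelled shCtrl and 14.1 in 1 library labelled shKDM4B-814, with no peak in the other 5 RH30 libraries; 1 QC6352 library had a weaker peak in its deposited list. Then came chr7:27167630-27167884 (fold 6.08 to 8.64), which every deposited RH30 list held except the 2 of QC6352. In HOXD the stronger of both losses was chr2:176953036-176953315 (fold 4.73 to 7.64). Of the 5 gained regions 3 were in HOXB: chr17:46605634-46606600, chr17:46665125-46665600 and chr17:46641342-46642438, with folds of 4.98 to 6.91 among them. The gained HOXA region, chr7:27174078-27174305 (fold 4.73 to 4.98), lay inside the strongest LHCN-only region. Both of these calls need the same DMSO libraries to have no peak, so they are not independent. Leaving out 1 DMSO library raised the lost count to 26 or 29, and leaving out 1 QC6352 library the gained count to 27 or 20.

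Among the hairpin libraries, the pair labelled shCtrl had the highest mean coverage of each interval. In HOXB the values were 12.8 and 18.5 kb as labelled shCtrl (named sh813 inside), 10.3 and 12.4 kb as shKDM4B-813 (sh814 inside) and 6.34 and 6.31 kb as shKDM4B-814 (shCtrl inside). In HOXD they were 3.78 and 4.04 kb, 2.38 and 1.75 kb, and 2.70 and 3.11 kb in the same order. The 3 pairs did not overlap in HOXB or HOXD. In HOXA they held 12.7 and 11.3 kb, 11.5 and 9.497 kb, and 9.47 and 10.3 kb, and in HOXC 4.88 and 7.60 kb, 5.15 and 5.06 kb, and 4.01 and 4.06 kb.

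With groups as labelled, coverage with shKDM4B-813 differed from shCtrl by -1.46, -4.33, -1.14 and -1.85 kb in HOXA, HOXB, HOXC and HOXD, and with shKDM4B-814 by -2.09, -9.34, -2.21 and -1.01 kb. The HOXA value of the labelled shKDM4B-813 pair was -0.437 kb without its library 2, -0.756 kb without shCtrl library 1, -2.48 kb without its library 1 and -2.16 kb without shCtrl library 2. The exact two-sided permutation p was 0.333, the smallest possible, for HOXB and HOXD with shKDM4B-813 and for all 4 clusters with shKDM4B-814. With the inner names the differences were 2.09, 9.34, 2.21 and 1.01 kb for the first hairpin and 0.628, 5.01, 1.07 and -0.84 kb for the second, so 7 of the 8 had the other sign. Those of the first hairpin are the labelled shKDM4B-814 differences with the sign turned, since the same libraries are compared with their sides exchanged. Both hairpins share their control pair in either grouping, so their differences are not independent. The HOXB difference of the labelled shKDM4B-813 pair was -1.51 kb without shCtrl library 2 and -7.15 kb without shCtrl library 1. For the labelled shKDM4B-814 pair the HOXC difference was -0.847 kb without shCtrl library 2 and -3.57 kb without library 1, and the HOXA difference was -1.38 kb without library 1. The flanks of HOXA and HOXD were ordered differently from the intervals: around HOXA they held 4.59 and 4.47 kb as labelled shCtrl, 13.6 and 9.93 kb as shKDM4B-813 and 9.12 and 7.21 kb as shKDM4B-814, and around HOXD 4.36 and 4.14 kb, 9.55 and 8.02 kb, and 7.44 and 6.12 kb. Per Mb of the whole list, HOXA coverage with either labelled hairpin was above shCtrl (by 0.00927 and 0.0343 kb per Mb), and so was HOXD with shKDM4B-814 (by 0.00310).

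Region calls with the hairpins were few. As labelled, shKDM4B-813 gained 3 of 109 HOX regions (2.75%), beside 12.4% over the genome, and lost 5 (4.59%), beside 7.99%. The labelled shKDM4B-814 pair gained 1 of 112 (0.893%), beside 6.73%, and lost 5 (4.46%), beside 6.78%. With the inner names the first hairpin gained 5 of 112 (background 6.78%) and lost 1 (background 6.73%), and the second gained 1 of 72 (background 6.12%) and lost 1 (background 3.3%). The first of these is the labelled shKDM4B-814 comparison with its sides exchanged, so it adds no further count. Every one of these shares lay below its background. The 2 labelled comparisons called 4 regions in common, chr12:54332082-54332864 gained and chr17:46691499-46692016, chr12:54387871-54388390 and chr12:54385013-54385324 lost, all of which rest on the shared pair. At the first of these the pair labelled shCtrl had no peak in the equal-length lists, while the other 8 RH30 and all 4 LHCN libraries had one. In the deposited lists 1 of the 2 libraries labelled shCtrl had a peak there too, and with those lists the labelled shKDM4B-814 pair gained 0 regions. A further region, chr7:27277339-27277681 near the high coordinate end of HOXA, was gained with the labelled shKDM4B-813 at percentiles of 53.5 and 49.8. The wider merged region around it, chr7:27277032-27277847, held a peak in all 4 LHCN libraries and in both libraries labelled shKDM4B-814 (48.1 and 10.8), though at 1 of these 2 the peak lay beside the named region. In the equal-length lists it held none with DMSO, with QC6352 or in the pair labelled shCtrl. Leaving out 1 library labelled shCtrl raised the lost counts to between 28 and 30.

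**Figure D5:**
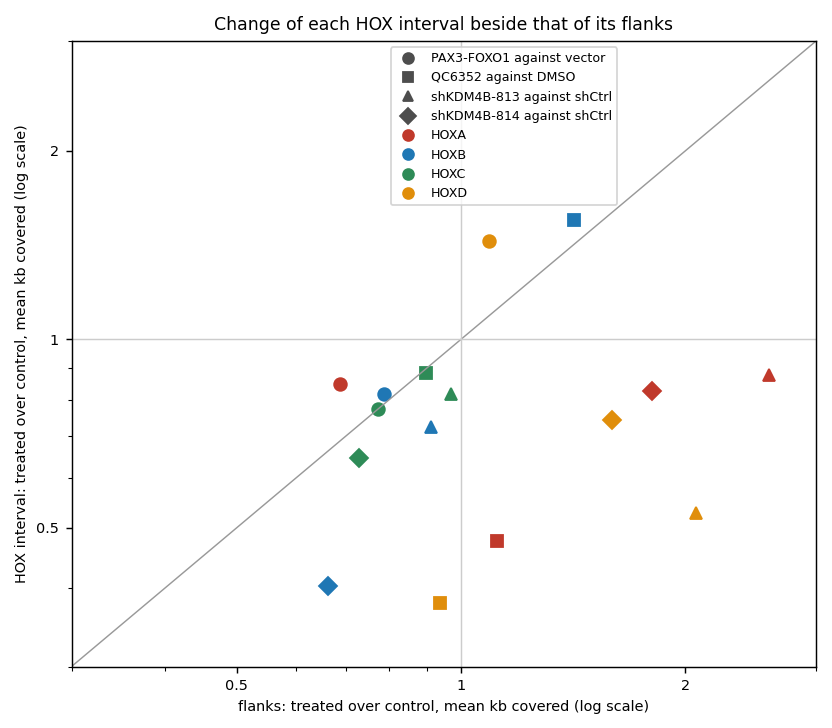
Each point is a HOX interval (colour) in one comparison (shape), by the ratio of mean kb covered in treated over control libraries for the flanks of 500 kb on each side (horizontal, log scale) and for the interval itself (vertical, log scale); hairpin groups are as labelled and the diagonal marks equal ratios. HOXA and HOXD with QC6352 lie at 0.476 and 0.380 vertically with flanks at 1.12 and 0.938, and HOXC with PAX3-FOXO1 lies on the diagonal at 0.775.

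Taking QC6352 and both hairpins together against the controls of their own experiments, with library labels exchanged inside an experiment only (90 sets of labels, lowest possible p 0.0222), coverage differed by -5.72 kb in HOXA (exact p = 0.0444), 0.27 kb in HOXB (p = 0.956), -1.75 kb in HOXC (p = 0.0667) and -2.47 kb in HOXD (p = 0.0222). After adjustment over the 4 clusters the exact permutation p was 0.0889 for HOXA, HOXC and HOXD and 0.956 for HOXB, so none passed 0.05. With the inner names the differences were -4.15, 7.27, -0.09 and -1.72 kb, with adjusted p between 0.0889 and 0.978. In HOXB the value was -0.982 kb without DMSO library 1, -1.40 kb without QC6352 library 2, -1.14 kb without shCtrl library 1 and -0.333 kb without shKDM4B-813 library 2, and in HOXC it was -1.11 kb without DMSO library 2 and -1.07 kb without shCtrl library 2. The joint HOXB value holds opposite directions, 7.36 kb with QC6352 and, as labelled, -4.33 and -9.34 kb with the hairpins in lists of 93488 peaks. In the same lists the HOXA mean was 19.4 kb with DMSO and 9.76 kb with QC6352. As labelled shCtrl, shKDM4B-813 and shKDM4B-814 it was 12.0, 10.5 and 9.89 kb. The larger part of the joint HOXA difference thus lay in the compound experiment. Around HOXA the flanks differed by 3.59 kb, opposite in sign to the interval (exact p = 0.0444, adjusted 0.178). Per Mb of list, as labelled, the joint differences were -0.0834, 0.0214, -0.0197 and -0.0381 kb in HOXA, HOXB, HOXC and HOXD. Their unadjusted exact permutation p was 0.289, 0.689, 0.244 and 0.0889.

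A few of the called regions recurred across comparisons. The lost region of the fusion comparison at chr17:46664895-46665372 overlapped the QC6352-gained region of HOXB and a region lost with the labelled shKDM4B-814 (chr17:46665175-46665516). The QC6352-lost chr7:27190025-27190747 overlapped chr7:27190392-27191024, lost with the labelled shKDM4B-813. The QC6352-lost chr7:27167630-27167884 was also one of the 4 RH30-only regions, although both vector libraries had a peak there in their deposited lists. The QC6352-lost call and the RH30-only call both need a peak in the same DMSO libraries, so that overlap is not between separate experiments. These were single regions, and their recurrence was not tested.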

How the data were processed

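ATAC-seq was deposited for 14 libraries in 7 groups of 2, grouped by their titles. The build was hg19 and the tools MACS2 2.1.1, SAMtools 1.3.1, Picard 1.65 and BWA 0.7.12-r1039, per the submitters' processing notes. The sources used here do not give settings, filters or any Tn5 shift. Peak names carry the tag frag-free, which no label explains. The authors deposited 1 narrowPeak list per library. Its score was not used, its fold value over background (a ratio from the authors' caller) describes peaks within a list, and its deposited −log10 p and −log10 q rank them. The lowest −log10 q was 2.0 to 2.6 over the lists. Read depth is unknown, so no interval for counting error is given.

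Lists were trimmed to the shortest of their experiment by −log10 q, fold and position, and peaks were merged. A region was open in a library where it shared at least 1 bp with a peak, and called where all libraries of one group and none of the other were open. Percentages of called regions or 10 kb windows over the genome are over those with a peak in at least 1 library compared. Covered kb was compared by exact two-sided permutation of libraries. Python 3.11.15, NumPy 2.4.6, pandas 2.3.3, SciPy 1.17.1 and matplotlib 3.10.9 were used, and the calling was tested on simulated data.

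Named regions were those called (at most 10 per comparison and direction, by the lower percentile) and the 3 strongest per cluster and line, with some printed. Members, intervals, windows and rules were chosen with earlier results of these data known. Grouping by inner names, DMSO as the only RH30 control, kb per Mb of list and the count of windows were added after seeing these files. Gene assignment, cell type markers and sequences of hg19 were not analysed here.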

Additional observations from a re-analysis of the deposited data

Results flagged for a closer look

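In HOXB both QC6352 libraries moved away from DMSO in the opposite direction to the hairpin libraries as labelled: the difference in covered kb was 7.36 kb with QC6352, -4.33 kb with shKDM4B-813 and -9.34 kb with shKDM4B-814, all from lists of 93488 peaks and with no overlap between treated and control libraries. The difference between these effects was not tested. With groups by the names inside the files, the hairpin differences were 9.34 and 5.01 kb, in the same direction as QC6352, so the contrast rests on which names hold. The 9.34 kb is the labelled shKDM4B-814 difference with its sides exchanged. QC6352 library 2 covered 67.0 Mb of the genome at this list length and library 1 45.4 Mb, and their part in the result was not tested.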

How the results depend on the processing

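Groups of 2 limit every comparison, read depth is unknown, and a weak peak can leave a list at any limit. With −log10 q of 10 or more, PAX3-FOXO1 gained 2 and lost 9 regions, QC6352 gained 1 and lost 6, shKDM4B-813 gained 6 and lost 2, and shKDM4B-814 gained 0 and lost 3, with 1 RH30-only and 40 LHCN-only regions; covered kb turned to 1.26, 0.382 and 2.24 in HOXA, HOXB and HOXC for shKDM4B-813 and to -5.58 in HOXB for the lines. With the lists as deposited, QC6352 gained 9, shKDM4B-813 lost 26, shKDM4B-814 gained 0 and lost 34, and 34 regions were LHCN-only; HOXC with QC6352 was 1.52 kb, and the joint KDM4 test gave -9.28 kb in HOXA and -3.40 kb in HOXD (both adjusted exact permutation p = 0.0444) and -0.0486 kb in HOXB. Requiring peaks over 50% of a region gave 8 gained with QC6352, 3 lost with shKDM4B-813, 0 gained with shKDM4B-814 and 1 RH30-only. With the number of open regions as the measure, HOXC with QC6352 differed by 1 and HOXB in the joint test by -2.63. Per Mb of list, shKDM4B-813 gave 0.00927 in HOXA, and shKDM4B-814 0.0343 in HOXA and 0.00310 in HOXD. All 10 RH30 against all 4 LHCN libraries gave 2 RH30-only and 6 LHCN-only regions and -7.50, -5.03 and -3.27 kb in HOXA, HOXC and HOXD; DMSO as the only RH30 control gave 9 RH30-only regions and 0.708 kb in HOXD. By inner names, the first hairpin gained 5 and lost 1 with 2.09, 9.34, 2.21 and 1.01 kb, the second lost 1 with 0.628, 5.01 and 1.07 kb in HOXA, HOXB and HOXC, and HOXB between the lines was -0.869 kb. The cause of these changes was not tested.

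Without 1 library at a time, PAX3-FOXO1 gained 9 to 19 and lost 18 to 22 regions, QC6352 gained 6 to 27 and lost 12 to 29, shKDM4B-813 gained 3 to 9 and lost 7 to 29, and shKDM4B-814 gained 1 to 9 and lost 7 to 30, as fewer libraries then make a call. Covered kb changed sign in HOXC for QC6352 (-2.19 to 0.352) and shKDM4B-813 (-2.50 to 0.223), in HOXD for the lines (-0.974 to 0.0228) and in HOXB for the joint test (-1.40 to 1.93). Same-numbered libraries did not deviate together (correlations of 0.0353, -0.0542, 0.00567 and 0.0140 for PAX3-FOXO1, QC6352, shKDM4B-813 and shKDM4B-814). The labels do not say whether they were prepared together. A replicate block leaves the counts as they are by construction (8 gained and 15 lost with PAX3-FOXO1). Its lowest possible p of 0.5, or 0.167 in the joint test, could make no call.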
